A study of Rattus norvegicus with 4 samples.

Results

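The expression of 9 genes that mark the insulin-producing beta cell was examined in rat pancreas: the transcription factor genes Pdx1, Nkx6-1, Nkx2-2, Neurod1, Isl1, Mafa and Pax6, and the glucose-handling genes Slc2a2 and G6pc2. They were taken as the array probes whose gene symbol was one of these names. Probes were found for 7 of the 9, 1 probe and 1 spot per gene, out of 26541 genes with a probe. No probe matched Nkx2-2 or G6pc2 by this rule, so neither was analysed here. Weanling male Sprague-Dawley rats had received an iron-deficient diet (FeD, 5 ppm iron), an iron-adequate diet (FeA, 35 ppm) or an iron-overloaded diet (FeO, 20275 ppm) for 3 weeks. Total RNA of the whole pancreas from 6 rats was pooled for each diet, and both diet pools were hybridized against the same FeA pool, each on 2 Agilent two-color arrays with the dyes exchanged. On array 1 of each comparison the diet pool carried Cy5, and on array 2 it carried Cy3. The 4 arrays lay on 1 slide and were read in 1 scan.

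Beta cells sit in the islets of Langerhans, which make up a small part of the pancreas, so whole-pancreas RNA is mostly that of enzyme-secreting acinar cells. PDX1, NKX6-1, NKX2-2, NEUROD1, ISL1, MAFA and PAX6 are DNA-binding proteins that set up and maintain the endocrine cell types. Several of them act directly on the insulin and Slc2a2 genes. In rodents, SLC2A2 (GLUT2) lets glucose enter the beta cell, and G6PC2 can turn glucose 6-phosphate back to glucose there. Pdx1 is also expressed in the duodenum and Slc2a2 in enterocytes and hepatocytes, so neither is confined to beta cells.

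The upstream regions of the 3 genes whose probe was well above background in every channel are given first. The expression results below do not draw on these sequences. RefSeq promoter windows were on hand for 8 of the 9 genes (build GRCr8), and for 6 of the 7 measured ones, Mafa being the exception. The 250 bases before the start used in that table are shown 5′ to 3′ on the strand of the gene, with capitals marking each TAAT (the core that homeodomain proteins such as PDX1 and NKX6-1 recognize, read on both strands) and each CANNTG (the E-box that NEUROD1 and other basic helix-loop-helix proteins recognize). The windows are chr12:12799157-12799406 on the minus strand for Pdx1, chr14:8273988-8274237 on the plus strand for Nkx6-1 and chr2:113540120-113540369 on the plus strand for Slc2a2. That of Slc2a2 lies inside the annotated span of the gene, which opens at an earlier base.
Pdx1: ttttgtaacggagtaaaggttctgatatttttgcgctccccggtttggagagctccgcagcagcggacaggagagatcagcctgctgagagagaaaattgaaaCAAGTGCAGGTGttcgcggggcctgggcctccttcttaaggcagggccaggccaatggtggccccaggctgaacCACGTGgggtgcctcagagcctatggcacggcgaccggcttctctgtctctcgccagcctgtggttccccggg
Nkx6-1: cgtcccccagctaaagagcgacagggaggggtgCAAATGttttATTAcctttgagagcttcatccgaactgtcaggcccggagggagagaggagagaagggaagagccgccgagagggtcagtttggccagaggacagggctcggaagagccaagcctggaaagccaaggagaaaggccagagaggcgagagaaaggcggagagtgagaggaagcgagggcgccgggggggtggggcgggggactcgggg
Slc2a2: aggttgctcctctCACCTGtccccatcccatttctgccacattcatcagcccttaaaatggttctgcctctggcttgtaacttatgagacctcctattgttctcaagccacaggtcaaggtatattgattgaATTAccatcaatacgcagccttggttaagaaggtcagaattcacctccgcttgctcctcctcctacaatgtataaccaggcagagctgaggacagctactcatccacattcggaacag

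The Pdx1 window held 3 E-boxes and no TAAT. The E-box nearest to the start, CACGTG, covered bases 73 to 68 before it, and the others lay side by side from base 147 to base 136. The Nkx6-1 window held 1 of each motif, the E-box from base 217 to 212 and ATTA, which is TAAT on the other strand, from base 207 to 204. The Slc2a2 window held an E-box from base 237 to 232 and ATTA from base 118 to 115. Of all 33469 promoter windows of this length, 57.0% held TAAT and 65.5% held CANNTG, against 5 of 8 for each motif among the genes studied here. These matches are letters in a window, and binding was not measured.

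Each value is a log2 ratio of the diet pool over the FeA pool, so that -1 is a halving and 0 no difference. As each diet was 1 pool, and the 2 arrays of a comparison held the same RNA, no test of the diets was possible. The standard deviation (SD) over the 2 arrays is technical error only, and differences between rats cannot be seen. A channel was called well above background by the scanner software, and a gene entered the counts when its probe was so on both arrays in at least 1 of the pools. This held for 4 of the 7 measured genes in FeD (Pdx1, Nkx6-1, Neurod1 and Slc2a2) and for 5 in FeO (the same and Isl1). Across all genes that passed, 15748 in FeD and 16448 in FeO, the median log2 ratio was 0.01 in both comparisons. The ratios of the 2 arrays differed by a median of 0.22 in FeD and 0.23 in FeO.

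The probes differed in brightness above local background. Over the 8 channels the net signal ran from 139 to 396 intensity units for Pdx1, from 127 to 339 for Slc2a2 and from 55.5 to 150 for Nkx6-1, and all 8 channels of each were well above background. Neurod1 was well above background in 7 channels, at 15.5 to 59.5 units, and Isl1 in 5, at 20 to 70.5 units. Pax6 was so in 3 channels and Mafa in 1. Signals of different probes are not levels of different transcripts, because each probe has its own affinity.

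Pdx1, the factor required to form the pancreas and to keep beta cells mature, had lower values in both diet pools than in the FeA pool. Its normalized log2 level in the 4 FeA channels was 8.33, 8.42, 8.31 and 8.36. In the FeD channels it was 8.16 and 8.04, and in the FeO channels 8.07 and 7.98. Every FeA value lay above every diet value, but the 4 FeA channels measured 1 pool. The share of all genes separated in this way was not counted, for Pdx1 or for the genes below. The log2 ratios were -0.17 and -0.37 in FeD, a mean of -0.27 ± 0.14 (SD of 2 arrays) or 17.3% below FeA. They were -0.24 and -0.37 in FeO, a mean of -0.31 ± 0.09 or 19.1% below. Among all genes that passed, 3.4% had a lower mean ratio in FeD and 5.7% in FeO. The agreement of the arrays depended on the loess correction: with each array only centered on its median, Pdx1 gave 0.12 and -0.67 in FeD and 0.06 and -0.59 in FeO, though the means stayed at -0.28 and -0.27. The scanner software's processed signals gave a mean of -0.50 in FeO.

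Nkx6-1, a repressor that keeps beta cells from taking on other endocrine fates, was lower in FeD and close to FeA in FeO. Its levels were 7.10 and 7.04 in FeD, below all 4 FeA values of 7.26, 7.34, 7.24 and 7.13. The FeO levels were 7.27, within the FeA range, and 7.03, below it. The log2 ratios were -0.16 and -0.30 in FeD (mean -0.23 ± 0.10, or 14.6% below FeA). In FeO they were 0.04 and -0.10, with a mean of -0.03 ± 0.10. The FeD mean was -0.40 with the processed signals.

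Neurod1, which drives endocrine differentiation and insulin transcription, had log2 ratios of -0.24 and -0.31 in FeD, a mean of -0.28 ± 0.05 or 17.5% below FeA. The FeD levels were 6.40 and 6.15, below the FeA values of 6.64, 6.46, 6.77 and 6.46. The signal on array 2 of FeD was not well above background, and the gene passed there through the FeA pool. Its FeD mean moved with the background correction, from -0.18 without one to -1.09 with the processed signals. In FeO the arrays opposed each other at -0.29 and 0.20, with a mean of -0.04 ± 0.34, and the levels of 6.48 and 6.66 fell within the FeA range.

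Isl1, a LIM-homeodomain factor of all islet cell types, was dim. In FeO its levels were 6.64 and 6.48 and its log2 ratios 0.19 and 0.08, a mean of 0.14 ± 0.08. It passed there only through the FeO pool, since FeA was well above background on 1 of those arrays, and the mean was 0.76 with the processed signals. In FeD the ratios were -0.34 and -0.01 (mean -0.17 ± 0.23), with both pools well above background on array 1 and neither on array 2. The FeO levels overlapped the FeA values, which ran from 6.23 to 6.56.

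Pax6, a factor needed for hormone gene expression in several islet cell types, passed in neither comparison. Its log2 ratios were 0.03 and -0.33 in FeD and -0.07 and -0.01 in FeO. Mafa, an activator of the insulin gene in mature beta cells, also passed in neither. Its ratios were -0.04 and 0.07 in FeD and -0.13 and 0.07 in FeO, and only the FeO channel of array 1 was well above background. A difference in either gene was not detectable at these signals.

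**Figure D1:**
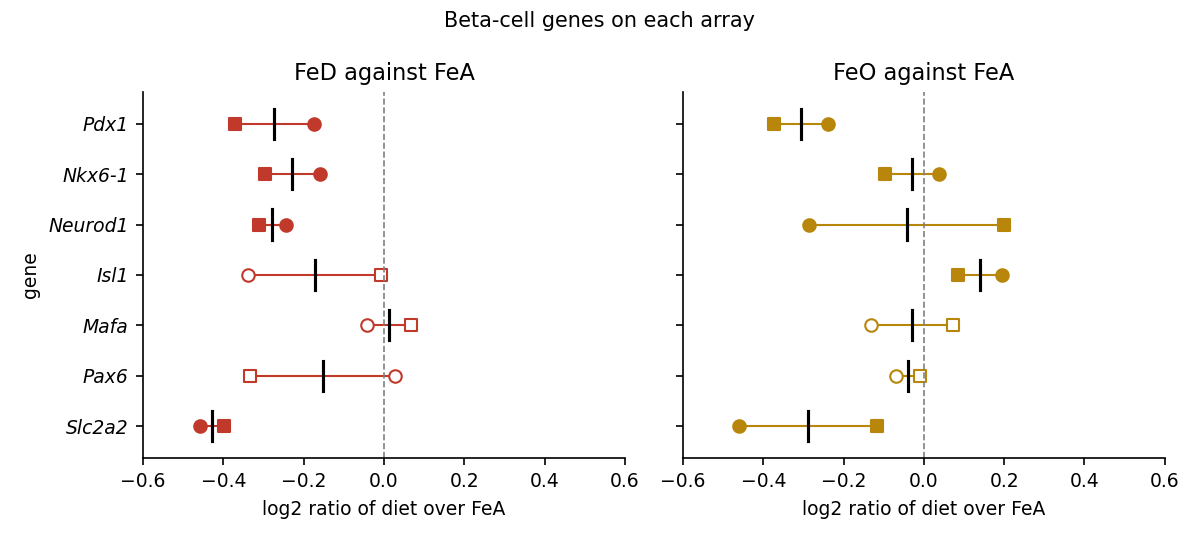
Log2 ratio of each diet pool over the FeA pool (x axis) for the 7 measured genes (y axis) on array 1 (circles) and array 2 (squares), with the mean as a black bar. Open symbols are genes that did not pass the filter on dim probes. Pdx1 and Slc2a2 lie left of 0 on every array, and the Neurod1 arrays lie on opposite sides of 0 in FeO.

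Slc2a2, the glucose transporter gene, had the lowest ratio of the measured genes in FeD. Its levels in the 4 FeA channels were 8.21, 8.33, 8.25 and 8.07. They were 7.75 and 7.93 in FeD and 7.79 and 7.96 in FeO, all below the FeA values. The share of all genes with this order was not counted. The log2 ratios in FeD were -0.46 and -0.40, a mean of -0.43 ± 0.04 or 25.7% below FeA. In FeO the arrays gave -0.46 and -0.12, a mean of -0.29 ± 0.24 or 18.1% below, and the FeO mean was -0.55 with the processed signals. Only 1.3% of the genes that passed had a lower ratio in FeD, and 6.5% in FeO. With median centering alone, Slc2a2 was below 0 on all 4 arrays.

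**Figure D2:**
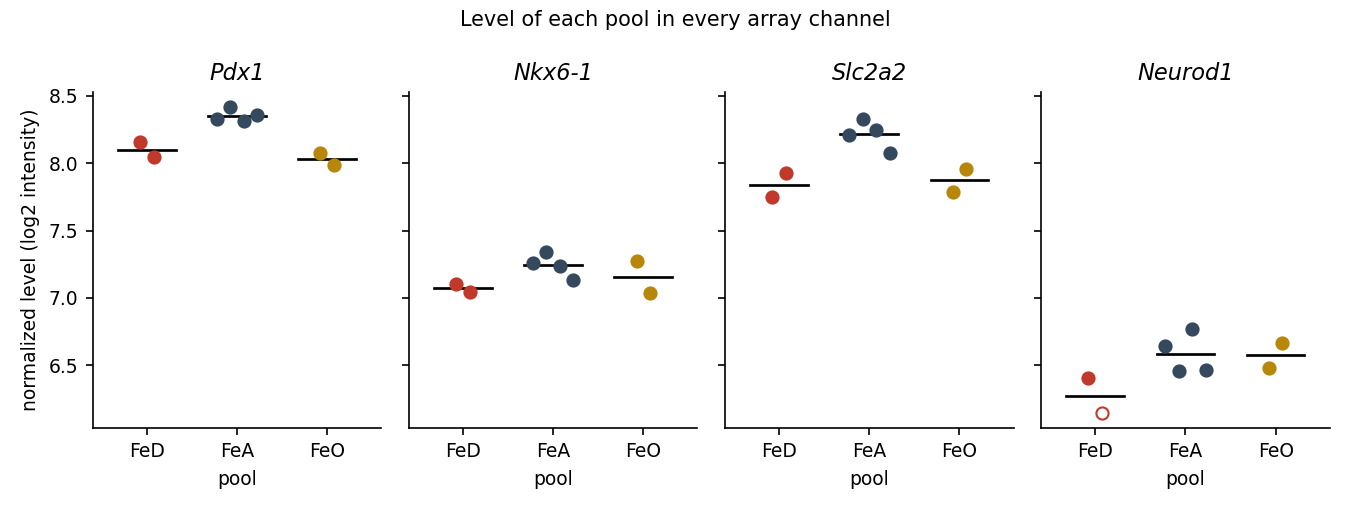
Normalized log2 intensity (y axis) of the 4 genes well above background in 7 or 8 of the 8 channels, in the FeD, FeA and FeO pools (x axis). Each point is 1 array channel, open where it was not well above background, and bars are means. The FeA points of Pdx1 and Slc2a2 lie above all diet points, while those of Nkx6-1 and Neurod1 overlap with FeO. All FeA points are of 1 pool, and the share of all genes with this order was not counted.

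As a group, all 4 genes that passed in FeD were lower than FeA on both arrays, where 21.7% of all genes were, and none was higher on both, where 25.3% of all genes were. The count was 3 with median centering, without Pdx1, and 3 where both pools had to be well above background, without Neurod1. Their median log2 ratio was -0.28, beside 0.01 over all genes. In FeO, 2 of 5 were lower on both arrays (Pdx1 and Slc2a2), where 24.1% of all genes were. Isl1 alone was higher on both, against 28.1% of all genes, and the median was -0.04. The differences were small in both comparisons. No gene of the group reached a log2 ratio of 1 in size, as 0.375% of all genes did in FeD and 1.17% in FeO, or of 2, as 0.108% did in FeD and 0.195% in FeO. Both comparisons used the same FeA pool, so a high value in that pool alone lowers both ratios. The count of FeD genes also includes Neurod1, which passed through FeA and was thus more likely to be lower in the diet, and that of FeO includes Isl1, which passed through FeO.

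**Figure D3:**
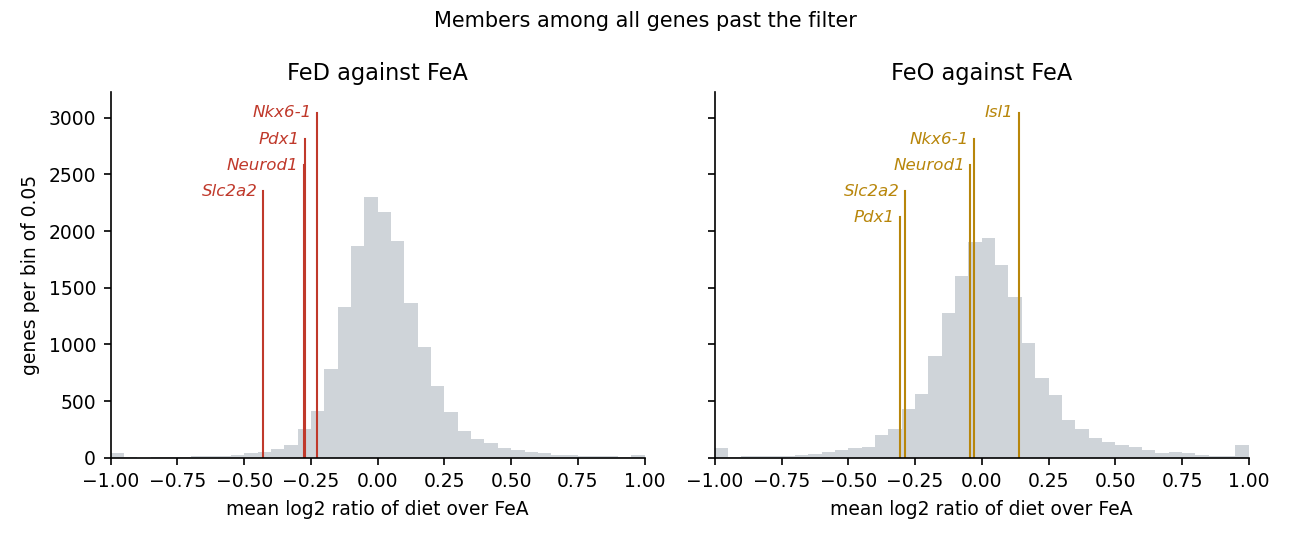
Number of genes (y axis) by mean log2 ratio of the diet over FeA (x axis, bins of 0.05, with values beyond the axis in the end bins) for all genes past the filter, and the genes studied here as vertical lines, whose height carries no value. In FeD all 4 lines stand left of the peak near 0, and in FeO only those of Pdx1 and Slc2a2 do so clearly.

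Among the secreted products of the beta cell, the insulin and amylin genes were lower in both diet pools. The insulin genes Ins1 and Ins2 were at mean log2 ratios of -0.44 and -0.45 in FeD. In FeO they stood at -0.81 and -0.77. Iapp, which encodes the amylin secreted with insulin, had -0.55 in FeD and -1.02 in FeO. All of these were lower on both arrays of their comparison. With the main processing, the insulin ratios in FeO were thus further from 0 than any of the transcription factors, of which Pdx1 had the lowest at -0.31. The sizes of the factor ratios depended on the processing: with the processed signals, Pdx1 had -0.50 and Isl1 0.76 in FeO. Insulin ratios with those signals are not given here, so the order of sizes holds for the main processing only.

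Genes of the other islet cells did not share one direction. Glucagon (Gcg, alpha cells) had a ratio of 0.21 in FeD and 1.14 in FeO, higher on both arrays of each. Pancreatic polypeptide (Ppy) had ratios of -0.04 and 0.48 on the FeD arrays and a mean of -1.08 in FeO. Somatostatin (Sst, delta cells) had 0.04 and -0.48 on the FeD arrays and a mean of -0.25 in FeO, lower on both arrays there. A list of 18 islet hormone and granule protein genes covered all islet cells, with Ins1, Ins2 and Iapp among them. All passed in FeD and 17 in FeO, and the median was -0.12 in FeD and -0.15 in FeO. Of these, 8 in FeD and 11 in FeO were lower on both arrays, and 3 in each were higher. Over all genes, 21.7% in FeD and 24.1% in FeO were lower on both arrays, and 25.3% and 28.1% higher. Ptprn2, a granule membrane protein gene, was higher on both arrays of each comparison (means 0.25 and 0.33), and the granule zinc transporter gene Slc30a8 had arrays of opposite sign in each (means -0.04 and -0.08). Only Iapp, Gcg and Ppy passed a log2 ratio of 1, all in FeO.

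The other genes of glucose sensing and insulin secretion had medians close to 0. Of the 21 listed genes of this group, which include the ATP-sensitive potassium channel, calcium channels and exocytosis proteins, 16 passed in each comparison. The median log2 ratio was -0.07 in FeD and -0.05 in FeO. In FeD 6 were lower and 2 higher on both arrays, in FeO 7 were lower and 3 higher, and none reached 1. The lowest in FeO was Stx1a, an exocytosis protein gene, at -0.53, and the highest was Ero1b, an oxidase gene of insulin folding, at 0.45.

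Other transcription factors of islet development were also near FeA. Of 26 listed, 24 had a probe, and 13 passed in FeD and 16 in FeO. Their median was -0.02 in FeD and 0.05 in FeO, with 2 lower and 5 higher on both arrays in each comparison and none at 1 or beyond. Of the genes that passed, 4 in FeD and 6 in FeO did so through only 1 pool. The 9 in FeD and 10 in FeO well above background in both pools had medians of 0.03 and -0.03.

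Some lists of genes of other cell types differed between the pools by more than the beta-cell genes did. Of 17 gut epithelium genes, 15 passed and 13 were lower on both arrays in each comparison, with a median log2 ratio of -1.38 in FeD and -1.74 in FeO. Of the 15, 7 in FeD and 6 in FeO passed only through the FeA pool, where they were bright, and so were more likely to be lower in the diet. Among the 8 in FeD and 9 in FeO that were well above background in both pools, 6 in each were lower on both arrays, with medians of -1.27 and -1.43. The mean log2 level of the 15 was 8.97 or more in FeA on the FeD arrays, against 7.30 and 7.59 in FeD. On the FeO arrays it was 8.95 and 8.98 in FeA, against 7.06 and 7.34 in FeO. Of the genes furthest from FeA, Lgals4 had ratios of -2.18 and -3.59 in FeD and FeO. Fabp1, an enterocyte fatty acid carrier, had -4.21 in FeD, with 1 of 2 FeD channels well above background. In FeO it was not well above background, which put FeA at least 21.8-fold higher. Apoa1 had -2.94 in FeD, also with 1 of 2 FeD channels well above background, and FeA was at least 7.95-fold higher than FeO. The signal of Fabp2 was not above that limit in FeD or FeO, with FeA at least 6.76-fold higher than FeD and at least 6.32-fold higher than FeO. These bounds set the FeA level against the lowest signal called well above background, or the probe's own signal where that was higher. The lowest signal of any probe is a lenient limit, so the bounds lie close to the measured folds (22.1 for Fabp1 in FeO). The paper that reported these data found Fabp1, Fabp2 and Apoa1 too low in pancreas for its qRT-PCR to detect. Of 9 gut hormone cell genes, 6 passed in FeD and 7 in FeO, with medians of -0.25 and -0.15, and Pyy had -1.01 in FeO. Of these, 1 in FeD passed only through FeA and 1 in FeO only through the FeO pool. The 5 in FeD and 6 in FeO well above background in both pools had medians of -0.05 and -0.23. The part of gut RNA in the lower Pdx1 and Slc2a2 ratios was not tested.

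Acinar genes had a median of -0.04 in FeD, where all 17 passed, and of -0.29 in FeO, where 12 of 17 had a value on both arrays after outlier spots were left out. Duct genes had medians of 0.02 and -0.08 in FeD and FeO, and nerve genes -0.07 and -0.08. Of the nerve genes, 2 in FeD passed only through FeA, and the 5 well above background in both pools had a median of 0.02. Lymphocyte genes had 0.48 in FeD, with 5 of 6 higher on both arrays, where 25.3% of all genes were. They had -0.43 in FeO, with 4 of 5 lower, where 24.1% of all genes were. Of these, 1 in FeD passed only through the FeD pool and 2 in FeO only through FeA, each through the pool where it was higher. The 5 in FeD and 3 in FeO well above background in both pools had medians of 0.52 and -0.43. Of those 3, 2 were lower on both arrays. Adipocyte genes had -0.03 in FeD and 1.92 in FeO, where 4 of 5 were higher on both arrays. In FeO Cfd, Adipoq, Cidec and Fabp4 had ratios of 2.30, 2.07, 1.92 and 1.47, while the arrays of Lep opposed each other at -0.11 and 0.31. Of 6 hepatocyte genes, only Alb and Tf passed in either comparison, with medians of 0.17 in FeD and 0.56 in FeO. In FeD the arrays of each opposed each other, at 0.45 and -0.05 for Alb and 0.50 and -0.21 for Tf. In bulk RNA, fewer beta cells and less of a transcript per beta cell cannot be told apart. The part of these other cell types in the ratios was not tested.

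**Figure D4:**
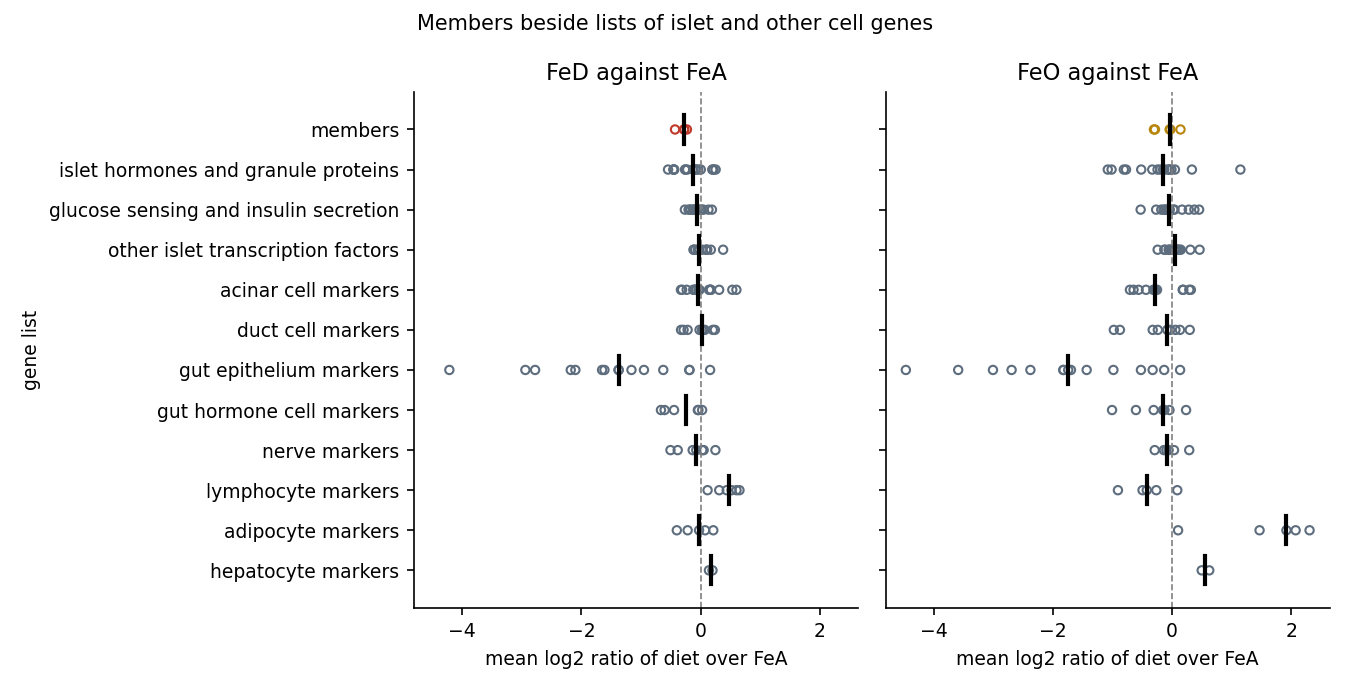
Mean log2 ratio of the diet over FeA (x axis) for each gene past the filter (open circles) and the median of each list (black bars), with the genes studied here in the top line and 11 lists of islet and other cell genes below it (y axis). The beta-cell genes span a narrow range near 0, while the gut epithelium list lies at a median of -1.38 in FeD and -1.74 in FeO and the adipocyte list at 1.92 in FeO.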

How the data were processed

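The 3 RNA pools, of 6 rats each, were compared on 4 two-color arrays. Intensity values were extracted by the authors (Agilent Feature Extraction, version 10.1.1.1) as uncorrected median spot and local background signals and as processed signals. The deposited well-above-background, outlier and saturation flags were used as given. The authors' tables of log2 fold changes, p-values and q-values were used for gene symbols only.

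Median signals were corrected with normexp (offset 50) and loess in limma 3.58.1 (R 4.3.3). The files hold no mean signals. Control spots were removed after normexp, and outlier spots (722, 938, 764 and 735 of 42877) were left out. Spots of a probe were averaged, the ratio of the dye-swapped array was turned, and both arrays were averaged. Normalized levels per channel came from the same values after Aquantile scaling. A probe was well above background when over 50% of its spots were. Channel medians ran from 115 to 222.5 units over backgrounds of 50 to 87, with 61.9% to 71.5% of spots well above background and at most 20 saturated. The number of pools and arrays limits the precision.

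Names came by accession for 59.3% of the 30367 probes, from the authors' symbols for 16.3% and from the array file for 24.4%. Mafa was named only through the authors' symbols. The 7 genes with a probe are reported, with Ins1, Ins2, Iapp, Gcg and Sst, and the list genes with a log2 ratio of at least 1 in size and the same sign on both arrays (at most 4 per list and comparison). Ptprn2, Slc30a8, Stx1a, Ero1b and Lep were named after their values were seen. The values of 1 further gene are not reported here, and the tallies of its list include it. The genes, the 11 lists and the alternatives were chosen with earlier results of these data known. The ratio and call steps were tested on simulated data.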

Additional observations from a re-analysis of the deposited data

Results flagged for a closer look

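Isl1 was lower than FeA on both FeD arrays (log2 ratios -0.34 and -0.01) and higher on both FeO arrays (0.19 and 0.08). The FeO ratio lay 0.31 above the FeD ratio (log2). This difference was not tested. On the FeD array at -0.01 neither pool was well above background, and with median centering that array gave 0.22, so that the FeD arrays opposed each other. No group held enough arrays for a check of single samples that stand apart.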

How the results depend on the processing

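Of 97 values of single genes under 11 alternatives, 95 kept their sign. The exceptions were both in FeO and in leave-one-out settings, Neurod1 at 0.20 without array 1 and Nkx6-1 at 0.04 without array 2. Part of this agreement was fixed in advance. Aquantile scaling, the brightest probe and the changes of filter leave the ratio of a gene with 1 probe as it was. Leaving out 1 of 2 arrays returns the ratio of the other. The sign could thus change only where the arrays opposed each other, as for the exceptions above. Keeping outlier spots hardly moved the ratios, since no spot of these genes was an outlier. The median of the FeD genes moved from -0.28 to -0.45 with a normexp offset of 0 and to -0.45 with the processed signals. These settings moved some single genes by over 1.5 times: the processed signals put Nkx6-1 in FeD at -0.40, Pdx1, Slc2a2 and Isl1 in FeO at -0.50, -0.55 and 0.76, and the offset of 0 put Nkx6-1 and Neurod1 in FeD at -0.37 and -0.75 and Isl1 in FeO at 0.33. With the processed signals, 1 gene, Neurod1, passed a log2 ratio of 1 in FeD, at -1.09. In FeD, 3 genes in place of 4 were lower on both arrays with median centering, and 3 where both pools had to be well above background. In FeO, 1 gene in place of 2 was lower on both arrays with median centering, and 0 were higher on both where both pools had to be well above background, with a median of -0.17. Leaving out an array gave 2 genes higher in FeO either way, and medians from -0.24 to -0.10 in FeO and from -0.34 to -0.21 in FeD. The cause of these shifts was not tested. The methods' t-test, which compares the pools by technical error, put Nkx6-1 in FeD and Pdx1 in FeO under its threshold of 0.05, and limma put Slc2a2 in FeD and no gene in FeO under it. Over all probes, 6.22% in FeD and 7.97% in FeO were under it by the methods' t-test, and 6.10% and 8.81% by limma. After Benjamini-Hochberg adjustment 0 of the genes were under it by either test, beside 1 probe in FeD and 0 in FeO of all probes by the methods' t-test and 103 and 153 by limma. No paired analysis was possible because the arrays of a comparison hold the same RNA pools. Signal over background limits Mafa, Pax6 and Isl1 most.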
